A study of Mus musculus with 12 samples.

Results

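Inmt encodes indolethylamine N-methyltransferase, an enzyme that carries methyl groups from S-adenosylmethionine to small amines and sulfur compounds. It was chosen by its symbol on the array, as the methyltransferase gene with the largest rise of retinoic acid over IL-1α on these same arrays, so its levels, fold differences and rank below were selected on the readout and are given as a description, with no test. It is 1 gene of 34509 symbols and has 1 probe (ILMN_1231445) of 46632. That probe passed the filter on dim probes, which kept 18200 probes for 14317 symbols, and it passed only through the retinoic acid arrays and 1 untreated array.

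The arrays measured total RNA of femoral head cartilage from 21-day-old TS-4/5∆cat mice, in which the catalytic domains of the aggrecanases ADAMTS-4 and ADAMTS-5 are deleted in frame. Hips, 4 to a well, were cultured for 3 days untreated, in the presence of IL-1α at 10 ng/mL or in that of retinoic acid at 10 µM, and the study looked for the proteinase behind the aggrecan-cleaving activity that remains in this cartilage. There were 4 arrays per treatment, 2 in each of 2 batches. Batch 1 came from the line labelled Donut and batch 2 from the line labelled Gertrude, so line and batch cannot be told apart. Every group carried the deletions, and no wild-type array was analysed here. By the labels the hips were held in serum first, and by the methods the medium had none. The methods describe 3 separate, unpooled mice for each treatment, a number that differs from the 4 arrays per treatment here. The labels describe hips shared in a well and do not say that replicates came from separate animals, so the p-values may measure a spread that is technical. In whole tissue, fewer cells of a type and less RNA per cell cannot be told apart.

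INMT methylates tryptamine and other indoleamines, and in mice it is also known as thioether S-methyltransferase, for the methylation of thioethers and of selenium compounds before they are excreted. It belongs to a small family with NNMT, which methylates nicotinamide, and PNMT, which turns noradrenaline into adrenaline. The enzyme is known from lung and liver, and each transfer leaves S-adenosylhomocysteine, which has to be cleared by adenosylhomocysteinase. Retinoic acid acts through nuclear receptors that pair with retinoid X receptors and bind direct repeats of a short hexamer in the DNA. Cyp26a1 and Rarb, which encode a retinoic acid hydroxylase and a retinoic acid receptor, are classical targets of this kind.

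The sequence upstream of the Inmt start is shown because the gene moved with retinoic acid as Cyp26a1 did. It was taken from the RefSeq promoter table of build GRCm38.p6, where Inmt lies on the minus strand of chromosome 6, and covers the 250 bases before the start (chr6:55174991-55175240). The capitals mark a 49-base stretch that occurs at both -235 and -189 from the start, the copies overlapping by 3 bases. A repeated stretch at least this long was found in 0.365% of the 32851 promoter windows of the table.
Inmt: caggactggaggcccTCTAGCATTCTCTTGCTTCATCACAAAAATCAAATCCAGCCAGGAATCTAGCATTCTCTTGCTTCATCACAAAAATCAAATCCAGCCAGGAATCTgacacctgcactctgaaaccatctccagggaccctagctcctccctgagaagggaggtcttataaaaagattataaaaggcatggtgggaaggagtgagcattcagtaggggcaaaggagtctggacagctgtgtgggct

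Each 300-base window of the table (250 before and 50 after the start) was searched on both strands for the hexamer AGGTCA, which nuclear receptors bind, for the variants GGGTCA on the one hand and AGTTCA on the other, and for the combined variant, GGTTCA. The Inmt window held none of them, whereas 43.7% of all windows held at least 1. Direct repeats of these hexamers with 5 bases between them were in 0.0974% of windows, with 1 base in 0.222% and with 2 bases in 0.268%, and the Inmt window held none of these either. The letters TATAAA, searched on both strands, were in 13.6% of windows and stood at -80 and -69 before Inmt, on the sense strand. No match says only that these letters are not in this window. Most of the genes searched for comparison also lacked the repeat: of 5 retinoid genes whose windows were searched, 3 held a hexamer and 2 the repeat with 5 bases, and of 6 of the genes most like Inmt, described below, 3 held a hexamer and 1 the repeat. The windows of Rarb and Cyp26a1 each held a direct repeat with 5 bases between the hexamers, in capitals here with 15 bases on either side, and are shown as examples of the repeat that was searched (Rarb at chr14:16575498-16575544 on the minus strand, Cyp26a1 at chr19:37697761-37697807 on the plus strand, where the match reads from the opposite strand).
Rarb: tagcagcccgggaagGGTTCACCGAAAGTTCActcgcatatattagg
Cyp26a1: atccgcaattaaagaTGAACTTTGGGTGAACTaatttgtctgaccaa

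Inmt was bright on the 4 retinoic acid arrays and at or just above the level of background on the others. On the scale of the deposited intensities, which are linear and not corrected for background, the probe read 7179.1 and 5767.9 on the batch 1 retinoic acid arrays and 11864.4 and 12993.8 on those of batch 2. With IL-1α it read 39.4, 36.8, 54.9 and 41.4, batch 1 before batch 2. Untreated arrays, in the same order, read 30.5, 29.4, 57.6 and 54.3. The retinoic acid arrays did not overlap the others: the lowest of them was 105-fold above the highest IL-1α array and 100.1-fold above the highest untreated array, before any normalization. Within a batch, the lowest retinoic acid array was 146-fold (batch 1) and 206-fold (batch 2) above the highest of the other arrays.

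The detection score, read as 1 minus a detection p-value, separated the arrays in the same way. The detection p was 0 on all 4 retinoic acid arrays. With IL-1α it was 0.403, 0.279, 0.279 and 0.474, so the probe was not well above background on any IL-1α array. Untreated arrays gave 0.512, 0.847, 0.236 and 0.0331. The last of these, replicate 2 of batch 2, was the only array without retinoic acid on which Inmt passed the threshold of 0.05, and it was also the array with the most detected probes, 19485 against 13786 to 17212 on the other 11. The part of that array's higher detection in the Inmt value was not tested.

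The brightest probe of the retinoic acid arrays read 15635.6 to 21645.1, and Inmt stayed below that level on each of them.

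**Figure D1:**
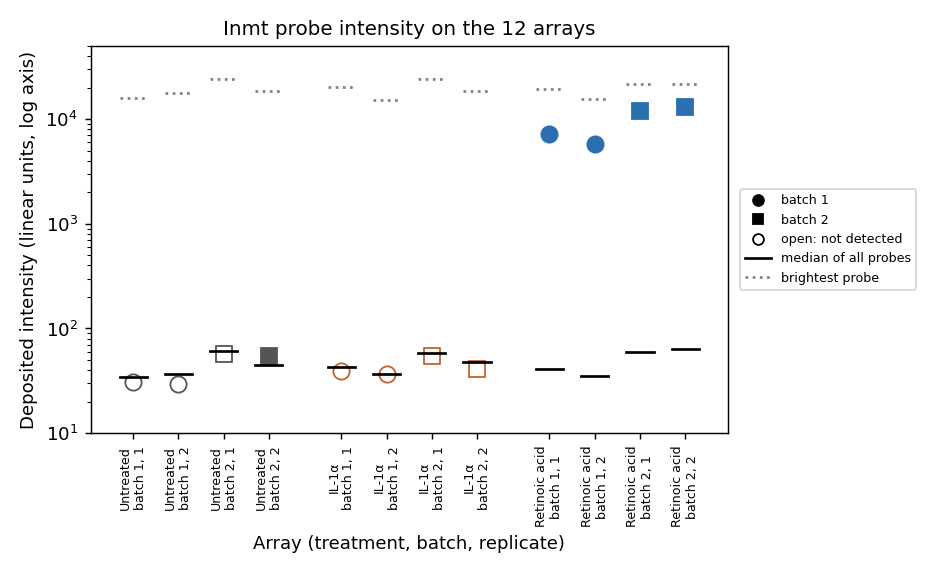
Deposited intensity of the Inmt probe (vertical axis, linear units on a log axis) on each of the 12 arrays, by treatment, batch and replicate. Filled symbols passed a detection p of 0.05, short black lines mark the median of all probes and dotted lines the brightest probe. The 4 retinoic acid arrays lie between 5767.9 and 12993.8 and all other arrays between 29.4 and 57.6.

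After background correction and quantile normalization with an offset of 16, Inmt had log2 values of 13.02, 13.02, 13.22 and 13.29 with retinoic acid, batch 1 before batch 2. The IL-1α arrays had 4.61, 4.70, 4.64 and 4.56. The untreated arrays had 4.56, 4.48, 4.66 and 4.97. The mean of the retinoic acid arrays was 13.14 ± 0.14 (SD, n = 4), above both others. For IL-1α it was 4.63 ± 0.06 (SD, n = 4). For untreated cartilage it was 4.67 ± 0.22 (SD, n = 4). IL-1α and untreated overlapped and had no order beyond their spread.

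The fitted difference of retinoic acid minus IL-1α was 8.51 on the log2 scale (SE 0.12), with 8.37 in batch 1 and 8.66 in batch 2. Retinoic acid minus untreated was 8.47 (SE 0.12), with 8.50 and 8.44. These 2 differences share the retinoic acid arrays. IL-1α minus untreated was -0.04 (SE 0.12), with 0.13 in batch 1 and -0.22 in batch 2, a difference between values that are nearly all below detection. A probe not well above background has only a bound, so the IL-1α arrays were set at the lowest detected signal of each array. On this scale the rise over IL-1α is better read as at least 236-fold (at least 188-fold in batch 1 and 297-fold in batch 2). The bound holds for this processing only. It is 7.88 on the log2 scale, above the differences measured without background correction (7.70) and with an offset of 50 (7.27). Against untreated, where 1 of 4 arrays detected Inmt, the same calculation gave 254-fold, and with the 3 untreated arrays that did not detect it at least 244-fold.

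Batch 2 differed from batch 1 on many probes: 65.8% of kept probes passed limma's test between the untreated arrays of the 2 batches, and 9.76%, 2.7% and 5.32% passed the test of a difference between batches in retinoic acid minus IL-1α, retinoic acid minus untreated and IL-1α minus untreated. For Inmt, the retinoic acid arrays of batch 2 lay above those of batch 1, as the log2 values above show. Retinoic acid minus IL-1α was larger in batch 2 by 0.29 (SE 0.20), or by 0.83 with each batch normalized separately. Retinoic acid minus untreated differed between batches by -0.06 (SE 0.20) and IL-1α minus untreated by -0.35 (SE 0.20), and the untreated arrays of batch 2 were 0.29 above those of batch 1 (SE 0.14). Since all IL-1α arrays and 3 of the 4 untreated arrays were below detection, these differences between batches hold values of the background and are given as a description, with no test.

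Inmt stood first of 14317 symbols by retinoic acid minus IL-1α, which is the ranking it was chosen from, in each batch and with every value raised to the lowest detected signal of its array. The next symbol was Cyp26a1, at 4.61 (SE 0.17). Cldn10, a claudin of tight junctions, followed at 4.54 (SE 0.16), Slco2b1, an organic anion transporter, at 4.48 (SE 0.12), Thsd4, a matrix protein with thrombospondin repeats, at 4.39 (SE 0.24), and Mdk, the growth factor midkine, at 4.29 (SE 0.12). Cldn10, Slco2b1, Thsd4 and Mdk were detected on all 4 untreated arrays and read lower with IL-1α than untreated (differences of -2.20 to -1.27). Their rises over untreated were smaller, 2.33 to 3.02. Picking genes by retinoic acid minus IL-1α favours low IL-1α values, so these differences are a description, with no test. Cyp26a1 had 4.78 against untreated, near its value against IL-1α, as Inmt did.

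The pattern of detection that Inmt showed, detected on all retinoic acid arrays, on no IL-1α array and on at most 1 untreated array, was that of 98 symbols, and 71 symbols were detected on all retinoic acid arrays and on no other. With values below detection raised to the lowest detected signal, retinoic acid minus IL-1α was above 2 on the log2 scale for 11 of the 98 and above 4 only for Inmt (7.88) and Cyp26a1 (4.13). Igfbp2 and Rarb were among the 11, with 3.32 and 2.40.

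**Figure D2:**
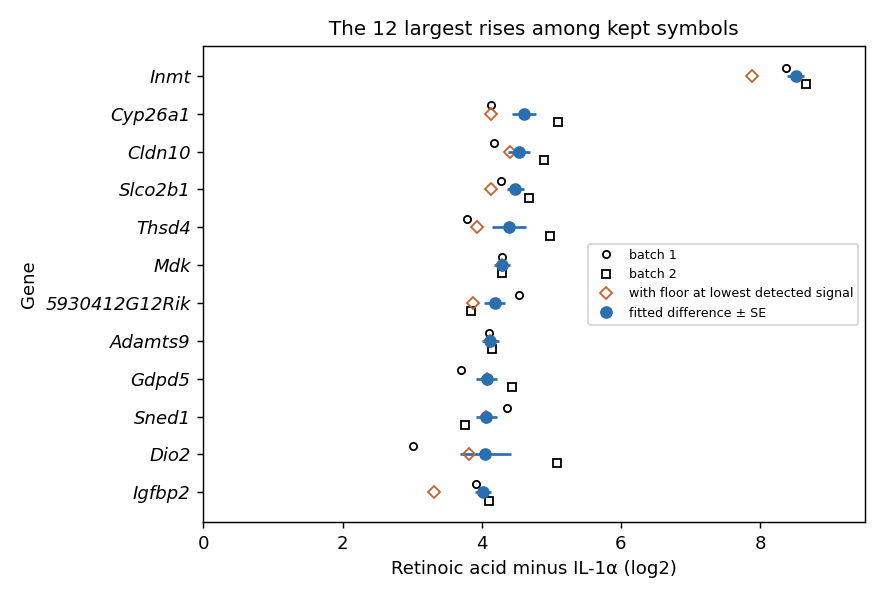
Retinoic acid minus IL-1α on the log2 scale (horizontal axis) for the 12 symbols with the largest rises, with the fitted difference and its SE, the difference within each batch, and the difference after values below detection were raised to the lowest detected signal of their array. By the fitted difference, Inmt is at 8.51 and the next symbol, Cyp26a1, at 4.61.

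The genes whose pattern was most like that of Inmt were found by Pearson's r over the 12 arrays after the mean of each batch was subtracted. The points of each r are 4 retinoic acid arrays against 8 others, and each array contributes to every gene, so r is a description of that contrast. Among the 10 highest of 14316 other symbols were B230312L03Rik (r = 0.999), a cDNA clone name, Igfbp2 (0.998), an insulin-like growth factor binding protein, Ngfr (0.997), the low-affinity neurotrophin receptor, Adamts9 (0.997), a metalloproteinase, Gdpd5 (0.996), a glycerophosphodiesterase, Hic1 (0.996), a transcriptional repressor, Cyp26a1 (0.996) and Sox4 (0.995), a transcription factor. In all, 34 symbols had r above 0.99, 276 above 0.95 and 156 below -0.95. Without the batch means subtracted, 5 of the 10 were again among the 10 highest.

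Cyp26a1 shows how close and how different such patterns were. Its log2 values with retinoic acid were 9.06, 9.14, 9.79 and 9.55, batch 1 before batch 2, against 4.91, 5.03, 4.62 and 4.53 with IL-1α and 4.64, 4.61, 4.65 and 4.53 untreated. The retinoic acid arrays did not overlap the others, and no other array detected the probe. Its rise over IL-1α was at least 17.5-fold on the same scale as the bound of Inmt. Adamts9 and Sox4, by contrast, were detected on all 12 arrays, with retinoic acid minus IL-1α of 4.12 (SE 0.12) and 3.89 (SE 0.17).

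**Figure D3:**
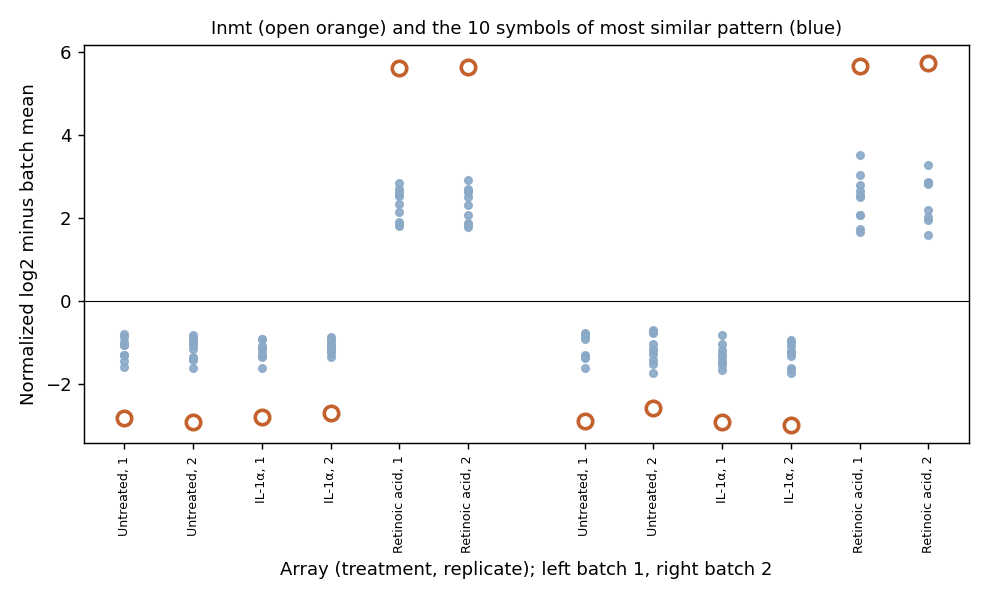
Normalized log2 value minus the batch mean (vertical axis) on each of the 12 arrays for Inmt and the 10 symbols with the highest within-batch r. All points of the 4 retinoic acid arrays lie above 0 and all points of the 8 other arrays lie below it, with Inmt farthest from 0 on every array.

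The other genes around the reaction were described in 4 lists, small-molecule methyltransferases, the S-adenosylmethionine cycle, tryptophan and indoleamine metabolism, and selenium and sulfur metabolism. Of 70 listed genes, 64 had a probe under their symbol or a synonym, 42 were kept and 21 were undetected on all 12 arrays. Among the 42, limma called 4 higher with retinoic acid than after IL-1α (9.52%, where 15.2% of all kept probes were called higher) and 17 lower (40.5%, where 15.8% were called lower), and the median difference was -0.20, against -0.03 over all kept probes. The differences ranged from -1.55 to 0.70, against 8.51 for Inmt. Against untreated, 3 were higher and 13 lower (18.2% and 17.1% of all kept probes), and for IL-1α against untreated 8 were higher and 8 lower (15.2% and 14.1%). With median scaling in place of quantile normalization, or with no filter on dim probes, 13 in place of 21 were called between retinoic acid and IL-1α.

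Among 11 kept methyltransferases, 1 was higher and 3 were lower with retinoic acid than after IL-1α (15.2% and 15.8% of all kept probes). Gamt, which makes creatine, was higher by 0.70 (SE 0.14, limma adjusted p = 0.00216), and 3 were lower. These were Pemt, which makes phosphatidylcholine, at -0.56 (SE 0.16, limma adjusted p = 0.0149), Nnmt at -0.50 (SE 0.17, limma adjusted p = 0.0378) and Pcmt1, a repair enzyme of damaged aspartyl residues, at -0.37 (SE 0.12, limma adjusted p = 0.0365). Tpmt, which methylates thiopurines, had 0.39 (SE 0.14), which did not pass. Against untreated the difference of Gamt was -0.23 and did not pass, and it was lower with IL-1α than untreated (-0.93).

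Nnmt, the member of the small family that was detected, was lower with retinoic acid than after IL-1α, with little difference in batch 1. Against untreated its difference was -0.45 (SE 0.17, limma adjusted p = 0.0563), which did not pass. Its log2 values with retinoic acid were 7.96 and 8.07 in batch 1 and 6.86 and 6.63 in batch 2. With IL-1α they were 8.05, 8.24, 7.53 and 7.73, and untreated 8.16, 8.21, 7.77 and 7.17. In batch 1 the groups all lay between 7.96 and 8.24 and in batch 2 the retinoic acid arrays were the lowest, with a retinoic acid minus IL-1α of -0.13 and -0.88, a difference between batches that did not pass (limma adjusted p = 0.0767). Pnmt was undetected on all 12 arrays, as were Hnmt, which methylates histamine, Gnmt, which methylates glycine, and Coq3.

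No kept gene of the S-adenosylmethionine cycle passed the test in the direction of Inmt. Mat2a, which makes S-adenosylmethionine outside the liver, differed by -0.01 (SE 0.15) between retinoic acid and IL-1α, and Ahcy, which clears S-adenosylhomocysteine, by 0.32 (SE 0.14), and neither passed. Mat2a was detected on only 2 retinoic acid, 2 IL-1α and 3 untreated arrays, so its small difference rests partly on values of the background. Ahcy read 6.68, 6.97, 6.96 and 7.05 with retinoic acid, 6.30, 6.53, 6.64 and 6.92 with IL-1α and 7.16, 6.89, 6.86 and 7.59 untreated, so that within each batch the retinoic acid arrays lay above the IL-1α arrays and overlapped the untreated ones. Of 16 kept genes of this cycle, 0 were called higher with retinoic acid than after IL-1α by limma (2 at an unadjusted p under 0.05, Ahcy and Mtap). Another 5 were lower, where 15.2% of all kept probes were called higher and 15.8% lower. These were Mthfd2, a mitochondrial folate enzyme, at -1.55 (SE 0.12), Adk, adenosine kinase, at -0.94 (SE 0.14), and Mtrr, which reactivates methionine synthase, at -0.73 (SE 0.15). The others were Ahcyl2 at -0.63 (SE 0.16) and Srm, spermidine synthase, at -0.60 (SE 0.15). Mtrr was detected on 2 of the 4 retinoic acid arrays, and had -0.62 with values below detection raised to the lowest detected signal.

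Mthfd2 fell the most. It read 10.16, 10.19, 10.12 and 10.12 with retinoic acid against 11.86, 11.89, 11.66 and 11.40 with IL-1α and 11.59, 11.77, 11.68 and 11.29 untreated, and the retinoic acid arrays did not overlap the others. Against untreated, 6 genes of the cycle were lower (17.1% of all kept probes), Mthfd2 (-1.43) and Adk (-1.34) among them. Cth, which makes cysteine from cystathionine, was not well above background on any retinoic acid array and was detected on 2 untreated and 2 IL-1α arrays.

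The enzymes that make and break indoleamines were largely undetected. Of 18 listed tryptophan genes 6 were kept, and Tph1 and Tph2, which start serotonin synthesis, Maoa, Aanat, Ido1, Ido2, Tdo2, Kmo, Kynu and Haao were undetected on all 12 arrays. Ddc, the decarboxylase that makes tryptamine and serotonin, was detected on the 4 untreated arrays, at 5.71, 5.80, 5.55 and 5.53, and on no other array. Its values were 4.82, 4.55, 4.64 and 4.88 with IL-1α and 4.51, 4.54, 4.70 and 4.52 with retinoic acid, which gave a fall of at least 1.32-fold with IL-1α and at least 1.37-fold with retinoic acid (limma adjusted p = 1.52e-04 and 2.09e-05 for the fitted differences).

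Maob, a monoamine oxidase, was lower in both treatments, at 5.06, 5.50, 5.24 and 4.98 with retinoic acid and 5.29, 5.47, 5.98 and 5.86 with IL-1α against 7.08, 7.34, 7.67 and 7.59 untreated. Both treated groups lay below the untreated arrays and overlapped each other. The fitted difference was -2.22 for retinoic acid and -1.77 for IL-1α against untreated, and -0.45 between the treatments (SE 0.15, limma adjusted p = 0.0359). Maob was detected on 2 retinoic acid and 3 IL-1α arrays. With values below detection raised to the lowest detected signal, the differences were -2.14, -1.72 and -0.42. Aldh2, a mitochondrial aldehyde dehydrogenase, was higher with retinoic acid than after IL-1α by 0.43 (SE 0.11), and Slc3a2, a subunit of amino acid transporters, and Afmid, a formamidase of the kynurenine route, were lower (-0.82 and -0.68). Slc3a2 was detected on 2 retinoic acid and 3 IL-1α arrays, and had -0.59 with the same floor. Wars, the tryptophanyl-tRNA synthetase, had 0.10, which did not pass.

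Of 9 kept selenium and sulfur genes, 2 were higher and 6 lower with retinoic acid than after IL-1α (15.2% and 15.8% of all kept probes). Ethe1, a sulfur dioxygenase of mitochondria, was higher by 0.49 (SE 0.13) and Sephs1, named for selenophosphate synthetase, by 0.47 (SE 0.16). Sephs1 was undetected on both IL-1α arrays of batch 1, its difference was 0.81 in batch 1 and 0.13 in batch 2, and it was 0.10 with values below detection raised to the lowest detected signal. Cdo1, which oxidises cysteine, was lower (-0.98, SE 0.15), and it was 0.90 higher with IL-1α than untreated. Cdo1 was detected on 1 retinoic acid, 2 untreated and 3 IL-1α arrays, and with the same floor these differences were -0.69 and 0.64. Scly, which releases selenium from selenocysteine, Sqrdl, Mpst, Tst and Suox were lower, with differences of -0.52 to -0.35. Of the 4 retinoic acid arrays, 2 detected Sqrdl and 1 detected Mpst, and with the same floor these genes had -0.45 and -0.40. Ethe1 was the only gene of this list higher with retinoic acid than untreated, by 0.56 (SE 0.13), while 4 were lower (18.2% and 17.1% of all kept probes).

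**Figure D4:**
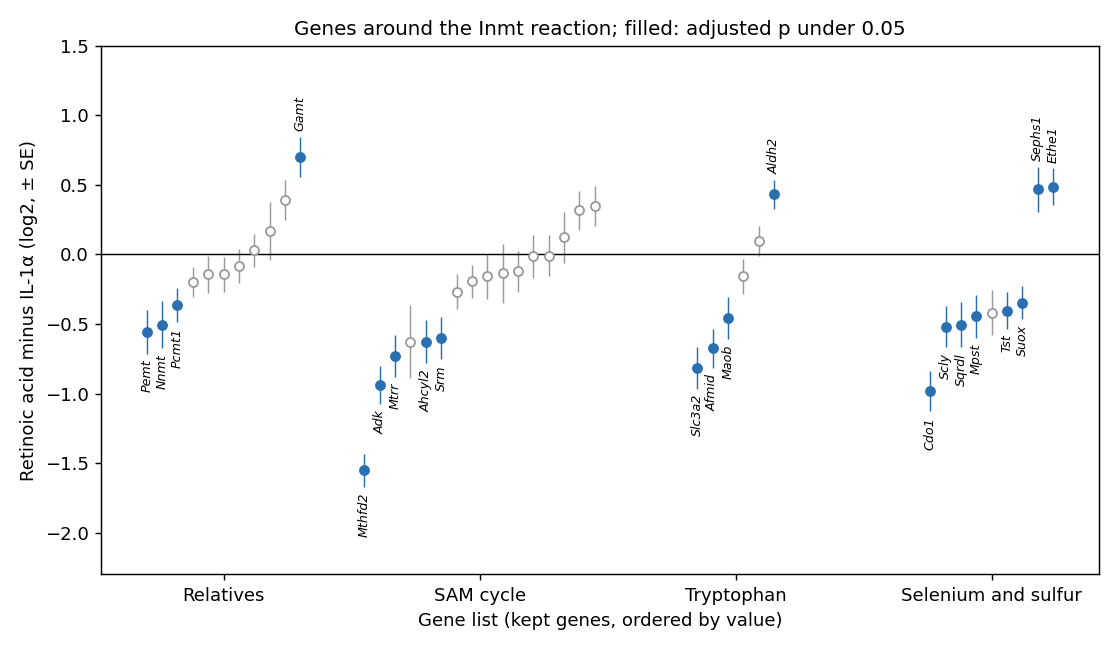
Retinoic acid minus IL-1α on the log2 scale with its SE (vertical axis) for the 42 kept genes of the 4 lists (horizontal axis), with filled and named points for those with a limma adjusted p under 0.05. The called genes are 4 above and 17 below 0, between -1.55 (Mthfd2) and 0.70 (Gamt), and Inmt, at 8.51, is outside the scale.

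The neighbours of Inmt in the RefSeq gene order were read in the same way, 5 on either side. Of the 10, 3 had a kept probe, 4 were on the array without passing the filter and 3 had no probe. Aqp1, the water channel aquaporin 1, was higher with retinoic acid than after IL-1α by 1.80 (SE 0.16, limma adjusted p = 1.8e-06) and than untreated by 1.31. Its log2 values were 9.12, 9.15, 10.94 and 11.13 with retinoic acid, 7.82, 7.63, 8.91 and 8.79 with IL-1α and 8.14, 8.05, 9.56 and 9.34 untreated, so the groups did not overlap within a batch, while batch 1 with retinoic acid overlapped batch 2 without it. Gars, glycyl-tRNA synthetase, was lower with retinoic acid than after IL-1α (-0.49), and so was Ggct, gamma-glutamylcyclotransferase (A030007L17Rik on the array, -0.94). Of the 4 neighbours that were not kept, Ghrhr and 6430584L05Rik were undetected on all arrays, Crhr2 was detected on 1 retinoic acid and 1 IL-1α array, and Mindy4, the nearest protein-coding gene on its side, on 3 untreated arrays only.

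The treatments and the tissue were checked on lists of known genes. Of 9 kept retinoid genes, 7 were higher with retinoic acid than untreated and 6 higher than after IL-1α, where 18.2% and 15.2% of all kept probes were called higher. Of the same 9, 2 were also higher with IL-1α than untreated (15.2% of all kept probes), Cyp26b1 by 0.59 and Tgm2 by 1.17. Of 8 kept IL-1 response genes, 5 were higher with IL-1α than untreated (15.2% of all kept probes), 4 were lower with retinoic acid than untreated (17.1%) and 7 lower than after IL-1α (15.8%). Il1b was the 1 gene of this list called higher with retinoic acid than untreated (18.2%), by 1.83. Chondrocyte markers were detected on all arrays, except Hapln1 on 2 and Col11a1 on 1 of the retinoic acid arrays and Matn3, which was undetected throughout. All 8 kept of 9 were called lower with retinoic acid than after IL-1α and than untreated, and their summed linear level was 10178 to 15446 with retinoic acid, 35394 to 47196 with IL-1α and 62550 to 74085 untreated. Markers of macrophages, 3 of 5 called higher with retinoic acid than after IL-1α and 3 higher than untreated, summed to 7232 to 7917, 3369 to 6702 and 5423 to 6644 in the same order. Those of endothelium, 3 of 5 called higher than IL-1α and 1 higher than untreated, summed to 2082 to 2458, 922 to 1212 and 1901 to 2350. Fibroblast and synovial lining markers, 2 called higher and 2 lower than IL-1α of 8 kept, and 1 higher and 6 lower than untreated, summed to 11779 to 15861, 16184 to 17942 and 18133 to 21021, and Clec3b and Mfap5 were undetected. This sum mostly follows its brightest marker, Prg4 (mean log2 of 13.20, 13.79 and 13.80 in the same order). The 1 called higher than untreated was Pdgfra, by 0.95, and it was 1.83 above IL-1α. Of 2 kept adipocyte markers, 1 was called higher than IL-1α and both lower than untreated, and they summed to 261 to 326, 209 to 477 and 935 to 1414, with Fabp4, Plin1 and Lep undetected. Of 4 kept osteoblast markers, 1 was called higher and 1 lower than IL-1α and 3 lower than untreated, and they summed to 2274 to 3423, 1952 to 4071 and 7984 to 10448, with Dmp1 undetected. Neutrophil markers, 3 of 5 called lower than IL-1α and 3 lower than untreated, summed to 3723 to 13059, 13109 to 14800 and 8086 to 11848. Red cell markers, 2 of 3 called lower than IL-1α and 0 called against untreated by limma (0 also at an unadjusted p under 0.05), summed to 9495 to 15999, 12782 to 16682 and 10322 to 17421. The part of these shifts in the Inmt values was not tested.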

How the data were processed

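The authors deposited linear probe intensities without background correction or normalization, and a detection score per probe and array, which rises with intensity and was subtracted from 1 to give a detection p. The bead summary software is not given in the sources used here. The study's methods name limma. In R 4.3.3 with limma 3.58.1, neqc corrected background from the detection p-values, normalized by quantiles and added an offset of 16 before log2. A probe was kept if its detection p fell under 0.05 on 4 or more of 12 arrays. The model held treatment and a 4-level factor combining batch with replicate, as the methods describe, and a further fit held treatment by batch. P-values were adjusted by Benjamini-Hochberg over the 18200 kept probes and called at 0.05. The p-values of the Inmt batch differences are not given, since its IL-1α and most untreated values lie below detection. The number of arrays limits the precision.

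A gene was read from its kept probe of highest mean. The text names Inmt, up to 4 called genes per list by size plus central enzymes, the 10 most similar symbols (2 of them are not reported here), the next 5 rises and the neighbours; other names came after their values were seen. The member and the lists were chosen with earlier results of these data known. The alternatives were other background, scaling, offset, filter, block and weight settings and leaving out each array. The fits were tested on simulated data. Gene names and promoters came from RefSeq GRCm38.p6 tables, and no protein sequence was used here.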

Additional observations from a re-analysis of the deposited data

Results flagged for a closer look

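Among the 44 kept genes that the naming rule covers, 18 of 132 comparisons of a treatment effect between batches passed limma's test at an adjusted p under 0.05. For retinoic acid minus IL-1α 12 passed (27.3% of the genes, against 9.76% of all kept probes), for retinoic acid minus untreated 5 (11.4% against 2.7%) and for IL-1α minus untreated 1 (2.27% against 5.32%). These are differences between the 2 lines as much as between the 2 batches, and their cause was not tested. The naming rule took genes partly by their calls and large treatment differences on these same arrays. Their shares are therefore a description and not a like comparison with all kept probes. Of the genes rising with retinoic acid, retinoic acid minus IL-1α was larger in batch 2 for Rarb (by 2.34), Thsd4 (1.20), Cyp26a1 (0.96), Sox4 (0.89), the neighbour Aqp1 (0.78) and Gdpd5 (0.73). Against untreated the difference was 2.26 for Rarb, and for Thsd4 IL-1α minus untreated was lower in batch 2 (-1.26). That of Cyp26a1 against untreated was 0.60 and did not pass (limma adjusted p = 0.135). No IL-1α array detected Cyp26a1, so its difference of 0.96 holds values of the background, 4.91 and 5.03 in batch 1 and 4.62 and 4.53 in batch 2. Of the genes around the Inmt reaction, retinoic acid minus IL-1α was lower in batch 2 for Cth (-1.12, and -1.53 against untreated), Maob (-0.71) and Pemt (-0.68). Cth was below detection on every batch 1 array (4.43 to 4.56). In batch 2 it read 6.34 and 6.01 untreated, 6.21 and 5.28 with IL-1α, and 4.54 and 4.57, below detection, with retinoic acid. Its batch 1 differences therefore hold only values of the background. Of the listed IL-1 response genes, it was lower in batch 2 for Saa3 (-4.11, and -3.38 against untreated), Cxcl1 (-2.12, and -1.33 against untreated) and Mmp3 (-1.49, and -1.49 against untreated). For IL-1α minus untreated, Saa3 (0.79) and Mmp3 (0.64) did not pass here.

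Of 132 groups of 4 arrays checked, 2 had an array far from the other 3. These were Ddc with retinoic acid (4.70 in batch 2, replicate 1) and Igfbp2 with IL-1α (4.71 in batch 2, replicate 2), both below detection. No group of Inmt was among them.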

How the results depend on the processing

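Inmt kept rank 1 under all alternatives that gave a value, including values floored at the lowest detected signal, a setting added after the data were seen. Requiring detection on all 12 arrays removed Inmt, so its difference has no value there. Retinoic acid minus IL-1α moved to 7.70 without background correction and to 7.27 with an offset of 50, and retinoic acid minus untreated to 7.69 and 7.25. These lie below the log2 values behind the 236-fold and 254-fold rises above (7.88 and 7.99), which hold only for the main setting. The batch difference of retinoic acid minus IL-1α was 0.83 with normalization within each batch and 0.70 with median scaling, and ranged from 0.15 to 0.42 over the arrays left out, with 0.15 without IL-1α batch 2 replicate 2. That of IL-1α minus untreated was -0.15 with an offset of 50 and ranged from -0.49 to -0.19, with -0.21 without that array and -0.19 without untreated batch 2 replicate 2. That of retinoic acid minus untreated changed sign with median scaling (0.37), normalization within each batch (0.46) and an offset of 50 (0.11), and ranged from -0.19 to 0.10 over the arrays left out, with 0.10 without untreated batch 2 replicate 2. The untreated difference between batches was 0.41 without background correction, 0.49 with normalization within each batch and 0.13 with an offset of 50, and ranged from 0.13 without untreated batch 2 replicate 2 to 0.44 without untreated batch 2 replicate 1. The cause of these changes was not tested.

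Counts of called pathway genes (21, 16 and 16) fell to 13 for retinoic acid against IL-1α with median scaling and with no filter, and to 10 for IL-1α against untreated with median scaling and with detection on all 12 arrays, where fewer genes are tested. Over the arrays left out they ranged from 13 to 23 (13 without IL-1α batch 1 replicate 2), from 10 to 15 for retinoic acid against untreated (10 without untreated batch 1 replicate 2) and from 10 to 16 (10 without either untreated array of batch 1). Replicate numbers were shared between treatments, but the correlations of same-numbered arrays, -0.11 to 0.39, do not show that they pair. With no replicate block, the counts were 21, 17 and 16 and Inmt kept 8.51 and 8.47. Signal over background limits every Inmt value except those with retinoic acid.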
